A study of Mus musculus with 42 samples.

Results

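Cytosolic ribosomal protein genes encode the protein building blocks of the large and small subunits of the ribosome. They were taken from the deposited expression table by gene symbol: every row named Rpl or Rps followed by a number, with Rplp0, Rplp1, Rplp2 and Rpsa, and without the rows whose names mark them as pseudogenes. The rule found 81 of the 13809 genes in the table, and it used no expression value. Of these, 43 were genes of the large subunit, 30 of the small subunit and 3 of the P-stalk (Rplp0, Rplp1 and Rplp2), and 5 were paralogues that duplicate another ribosomal protein (Rpl3l, Rpl7l1, Rpl22l1, Rps27l and Rps4l). All 81 passed the filter on low values in both sets.

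RNA sequencing was done on tibialis anterior muscle of male C57BL/6J mice aged 4 months. In set 1 (22 libraries), WT mice, Sesn1SkM-Tg mice and Sesn2SkM-Tg mice were studied in basal conditions or after hindlimb immobilization. Sesn1SkM-Tg mice carry a human Sesn1 cDNA driven by the muscle creatine kinase (MCK) promoter, and Sesn2SkM-Tg mice combine a tetracycline-regulated Sesn2 transgene with a transactivator driven by the same promoter, so that both transgenes act in muscle fibers. In set 2 (20 libraries), WT mice and Sesn1KO mice (genotype Sesn1-/-) were studied in basal conditions or after immobilization, and WT mice also after denervation. For immobilization the right hindlimb was fixed to a rigid support for 3 days, and for denervation a segment of the sciatic nerve was cut out. The day on which denervated muscle was taken is not given in the sources used here, so the 2 treatments may differ in duration. Each of the 11 groups had 4 libraries, except that WT immobilized muscle of set 1 and Sesn1SkM-Tg immobilized muscle had 3. The study used non-transgenic littermates as controls of each transgenic line. The WT libraries of set 1 served both lines here, and the labels do not say from which line's litters they came. Nothing in the sources ties a library of a basal group to a particular library of an immobilized one.

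Ribosomal proteins are built into the ribosome in nearly equal amounts, and their genes are usually expressed together at high levels. In vertebrates their transcripts start with a cytosine followed by a run of pyrimidines, the 5' terminal oligopyrimidine (TOP) tract, through which the mTOR pathway controls their translation. Striated muscle is unusual in that its main form of ribosomal protein L3 is the paralogue Rpl3l, which is largely restricted to heart and skeletal muscle, while Rpl3 is the form of other tissues. Sestrins, the proteins encoded by the Sesn genes, are stress-inducible regulators that restrain mTORC1 signalling.

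The start of the transcribed region was taken from RefSeq (GRCm38.p6), which held a promoter entry for 60 of the 81 genes and for 9957 genes of the whole table. A TOP-like tract, defined as a C followed by at least 7 further C or T between 10 bases before and 50 bases after the start site, was found in 43 of the 60 (71.7%) against 19.0% of the 9957. The ETS-type motif CCGGAAG, searched on both strands over the 300 bases of an entry, was found in 25 of the 60 (41.7%) against 19.2%, whereas the E-box CACGTG was found in 6 of the 60 (10%) against 11.7%. Windows of 30 bases, beginning 5 bases before the start site, are printed below for 5 genes that were called higher in every immobilization comparison, for Rpl3l at each of its annotated starts, and for Rpl22l1. They are shown because the TOP tract is the sequence feature most of these genes share, and capitals mark the bases of the tract.
Rpl13a (chr7:45128721-45128750, minus strand): gacaagaCCTCCTCCTTTCCCaggcggctg
Rpl18 (chr7:45718066-45718095, plus strand): aggccgCTCTTTCCCCgcccactccggcgc
Rps6 (chr4:86857343-86857372, minus strand): cgggCCTCTTTTTCgtgacgcctcccaggc
Rps15a (chr7:118116123-118116152, minus strand): gccatCTTCCCTCgccggtgagtgagtgtt
Rps18 (chr17:33955641-33955670, minus strand): ccgCTCTCTCTTCCacaggaggcctacacg
Rpl22l1 (chr3:28805503-28805532, plus strand): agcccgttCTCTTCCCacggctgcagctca
Rpl3l (chr17:24727821-24727850, plus strand): gctctgtcatttgacctctggtgcctggtg
Rpl3l (chr17:24732680-24732709, plus strand): gctacagtgccccaaatgtcctgaaaggct
In the 5 subunit genes the tract began within 2 bases of the start site, and in Rpl22l1 it began 3 bases after it. The 5 were taken from the genes with a tract at the start, so its position in them is no finding. Neither window of Rpl3l shows such a tract, but Rpl3l is among the 43 genes counted, since 1 of its entries holds a tract downstream of the bases printed. Among the 60 genes, the 43 with a tract and the 17 without one had similar median log2 fold changes, for example 0.48 and 0.48 in immobilized WT muscle of set 1 and 0.75 and 0.69 in denervated muscle. The split rests on annotated start sites and counts tracts away from them, so it cannot separate TOP transcripts from others.

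Values are the normalized counts deposited by the authors, whose read depth is unknown. They summed to between 722430 and 1276770 per library. Immobilized and denervated groups had lower mean sums than basal ones, at 0.72 to 0.93 of the basal mean. Immobilized Sesn1KO replicate 3, at 1126680, lay within the range of the basal Sesn1KO libraries, 1055510 to 1149250. The 10 muscle fiber marker genes summed to between 54099 and 162904 in every library. As a check of the targeted genes, the mouse Sesn1 row had a mean of 18.5 in basal WT muscle of set 1, 59.4 in Sesn1SkM-Tg muscle, 25.8 in WT muscle of set 2 and 9.14 in Sesn1KO muscle, all basal, and both differences passed the test (adjusted p = 0.0021 and 0.000108, limma). In immobilized muscle the Sesn1 row stood at 40.3 in Sesn1SkM-Tg and 13.6 in WT mice of set 1, which was not called (adjusted p = 0.0915). The Sesn1 row stood at 26 in immobilized Sesn1KO mice and 41 in immobilized WT mice of set 2, a difference that did not pass the test (log2 fold change -0.66, adjusted p = 0.0695, limma). Reads outside the deleted part would still count for that row. Sesn2 had a mean of 2.63 in basal WT muscle and 10.8 in Sesn2SkM-Tg muscle of set 1 (adjusted p = 7.27e-05). One basal WT library of set 1 (replicate 4) and one basal Sesn2SkM-Tg library (replicate 2) had the highest summed values of their groups, and values without them are given beside the counts and medians they moved.

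Levels differed widely among the ribosomal protein genes at rest. Per kb of exon (GENCODE M21), normalized counts in basal WT muscle of set 2 ran from 0.957 to 504, with a median of 55.6. The 3 highest were Rplp1 at 504 ± 34.8, Rpl3l at 308 ± 8.29 and Rplp0 at 303 ± 21 per kb (SD, n = 4). Rplp0 and Rplp1 are P-stalk proteins, which recruit elongation factors to the ribosome. Rpl3l and Rplp0 did not differ beyond their spread. In set 1 the order was Rplp1, Rplp0 and Rps3a1, with Rpl3l next. The 3 lowest in both sets were Rpl12, Rps4l and Rpl5, at 0.957 ± 0.456, 2.08 ± 0.874 and 2.5 ± 0.173 per kb in set 2. Rpl5 and Rpl12 are core parts of the large subunit. The table also held 31 rows named as copies of ribosomal protein genes, and reads shared between a gene and a near-identical copy can have been counted in either row, so levels of single genes are uncertain for that reason.

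Ribosomal protein transcripts took up a larger share of the normalized counts after disuse. The summed value of the 81 genes was 0.898, 0.852, 0.893 and 1.22% of the library total in the 4 WT libraries of basal muscle of set 1 and 1.38, 1.73 and 1.92% in the 3 immobilized ones. In set 2 it was 0.888, 0.947, 1.01 and 0.911% in basal WT muscle, 1.3, 1.31, 1.42 and 1.25% after immobilization and 2.3, 2.2, 1.82 and 1.87% after denervation. In both sets every immobilized WT library lay above every basal one, and every denervated library lay above every immobilized library of set 2. The share was 1.03% ± 0.0965 (SD, n = 4) in basal and 1.81% ± 0.392 (SD, n = 3) in immobilized Sesn1SkM-Tg muscle, 1.15% ± 0.151 (SD, n = 4) and 1.89% ± 0.201 (SD, n = 4) in Sesn2SkM-Tg muscle, and 0.97% ± 0.0536 (SD, n = 4) and 1.38% ± 0.195 (SD, n = 4) in Sesn1KO muscle. The fold of the group means was 1.74 in WT, 1.77 in Sesn1SkM-Tg and 1.64 in Sesn2SkM-Tg muscle of set 1, and 1.40 in WT and 1.42 in Sesn1KO muscle of set 2, against 2.18 for denervation. Mean library sums were lower after disuse. Without division by the total the summed value itself rose 1.36-fold, 1.41-fold, 1.3-fold, 1.29-fold and 1.31-fold with immobilization in the same order, and 1.58-fold with denervation. In whole muscle, more RNA per fiber and more cells of another kind cannot be told apart.

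**Figure D1:**
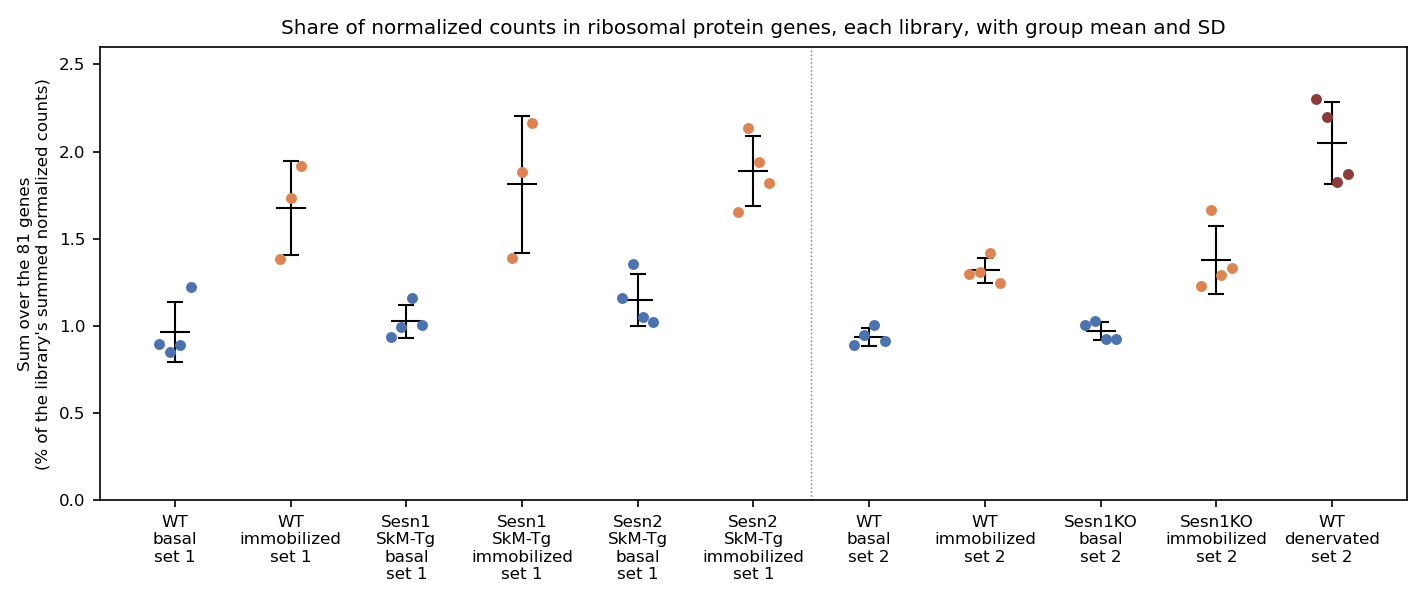
Summed normalized counts of the 81 ribosomal protein genes as a percentage of each library's total (y axis), by group (x axis); each point is a library, and the bars give the group mean and SD. Basal libraries lie between 0.852% and 1.36%, immobilized libraries between 1.23% and 2.16%, and denervated libraries between 1.82% and 2.30%.

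Immobilization raised many ribosomal protein genes in every genotype, by a modest amount each. Genes were called where the adjusted p was under 0.05 (limma, Benjamini-Hochberg over all genes tested) with a log2 fold change of at least 0.25 in size, on the log2(value + 1) scale. In WT muscle of set 1, 44 of the 81 rose, where 14.9% of all 13705 genes tested rose, and 1 fell, where 14.5% of all genes fell. The median log2 fold change of the 81 was 0.48, against 0.00 over all genes. In Sesn1SkM-Tg muscle, 50 rose and 1 fell (all genes: 18.2% and 16.5%), with a median of 0.51. In Sesn2SkM-Tg muscle, 44 rose and 1 fell (all genes: 15% and 15.7%), with a median of 0.43. In set 2, 58 rose and 2 fell in WT muscle (all genes: 16.2% and 17.7%), with a median of 0.38, and 66 rose and 1 fell in Sesn1KO muscle (all genes: 17.2% and 19.9%), with a median of 0.4. The labels do not say that the libraries of a group came from separate animals, so p-values measure the spread between libraries. Both subunits took part: 26 of 43 genes of the large subunit and 18 of 30 of the small subunit rose in WT muscle of set 1, and 33 and 22 in WT muscle of set 2. The 3 P-stalk genes rose in both genotypes of set 2, by 0.33 to 0.66 on the log2 scale, and had values of 0.31 to 0.48 in set 1 that did not pass the test.

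Of the 81 genes, 32 were higher in all 5 immobilization comparisons, and each of these was also higher after denervation. They included Rpl3 and Rpl10 of the large subunit and Rps20 and Rps28 of the small subunit. Only Rpl3l was lower in all 5. How many of all genes were called alike in all 5 was not computed. That number cannot exceed the fewest calls in 1 comparison, 2037 of 13705 genes (14.9%) for higher and 1981 (14.5%) for lower. Rps2 and Rpl36 were among the genes called in none of the 5. Rps2, a small subunit protein near the mRNA entry channel, had 126, 137, 138 and 113 normalized counts in basal WT muscle of set 2, 135, 144, 153 and 114 after immobilization and 140.4, 137, 128 and 129 after denervation. The 3 groups overlapped, and its log2 fold changes were 0.08 and 0.06.

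The counts in set 1 rested on single libraries more than those in set 2. Without basal WT replicate 4, 74 genes rose with immobilization in WT muscle of set 1 and the median was 0.63, whereas 14 rose without immobilized WT replicate 3, 21 without immobilized replicate 2 and 26 without basal replicate 2. For Sesn1SkM-Tg muscle, 18 rose without immobilized replicate 3 and 31 without immobilized replicate 2. For Sesn2SkM-Tg muscle, 71 rose without basal replicate 2, 21 without basal replicate 3 or without basal replicate 4, and 27 without immobilized replicate 2. In each of these fits Rpl3l was the 1 gene that fell. Calls over all genes were not counted in these fits, so whether they moved alike is not known. Scaling each library to an equal sum raised the count of genes that rose to 79, 76, 76, 69 and 70 in the 5 comparisons, and moved the median of all genes to 0.28, 0.25, 0.26, 0.08 and 0.06. Relative to that shift the median of the 81 genes stood 0.54, 0.57, 0.48, 0.43 and 0.45 higher, against 0.48, 0.52, 0.42, 0.41 and 0.43 in the deposited values. Under that scaling 84.7%, 82.6%, 80.4%, 64.3% and 60.1% of all calls were higher, against 50.7%, 52.3%, 48.9%, 47.7% and 46.4% in the deposited values. With libraries scaled to an equal sum, 4087, 4138 and 3924 of all 13705 genes were higher in set 1. In set 2, 2940 and 2971 of all 13629 were.

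**Figure D2:**
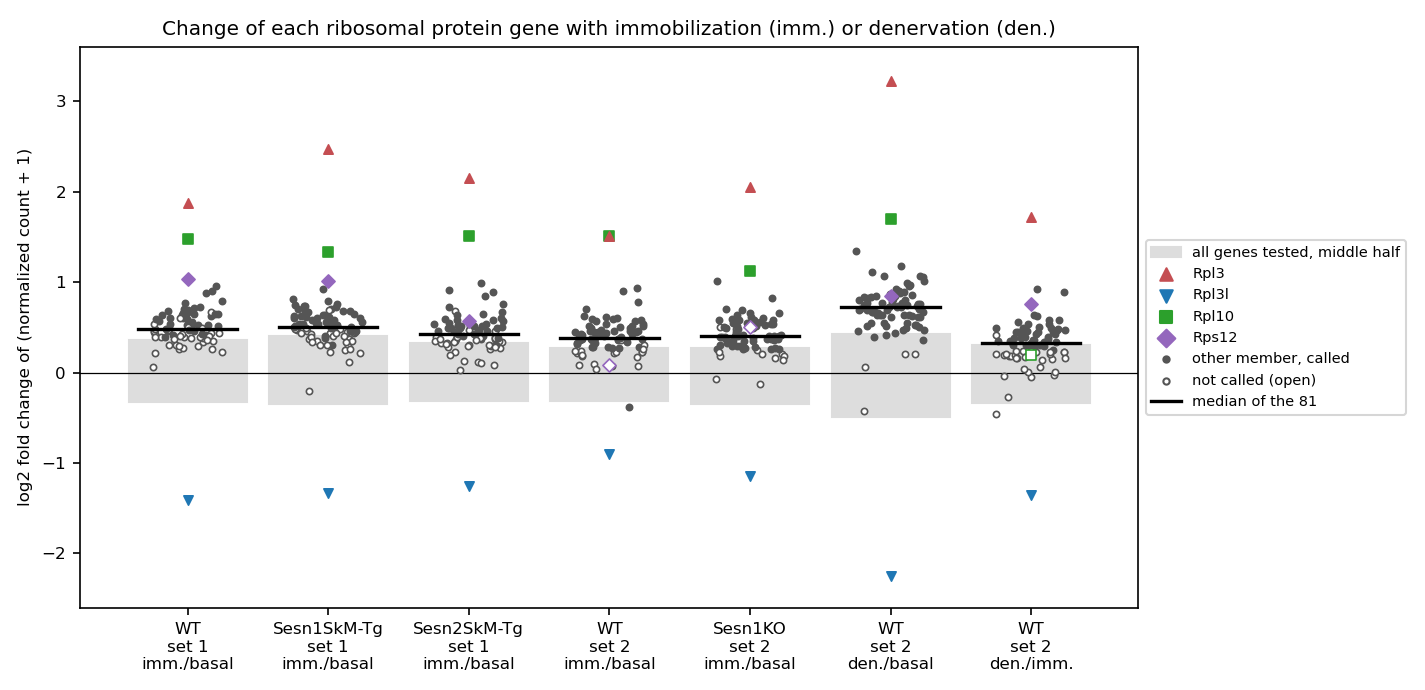
Log2 fold change of log2(normalized count + 1) (y axis) of each of the 81 ribosomal protein genes in the 5 immobilization comparisons and the 2 comparisons of denervated muscle (x axis); filled symbols were called, open symbols were not, black lines are the medians of the 81 and grey boxes the interquartile range of all genes tested. The medians lie between 0.33 and 0.72, Rpl3 lies at the top or beside Rpl10 in each comparison, and Rpl3l lies at the bottom.

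Denervation raised nearly all of the ribosomal protein genes. In WT muscle of set 2, 75 of the 81 rose and 1 fell (all genes: 27.8% and 27.7%), and the median log2 fold change was 0.72. Denervated and immobilized WT muscle were compared with the same basal libraries. By subunit, 41 of 43 genes of the large subunit and 28 of 30 of the small subunit rose, together with all 3 P-stalk genes, and the medians were 0.73, 0.75 and 0.49. Across the 81 genes, which share the same libraries, the log2 fold change and exon length had a Spearman rho of 0.37 after denervation and 0.14 to 0.33 over the immobilization comparisons, given as a description. The 5 not called were Rps2, Rps24, Rps4l, Rpl36 and Rpl39. Compared directly with immobilized WT muscle, whose duration may differ, 46 genes were higher and 1 lower in denervated muscle (all genes: 20.5% and 18.4%), with a median of 0.33. Rps28, a small subunit protein, was among those that did not follow: it had 43.1, 56.9, 56.9 and 46.9 normalized counts in basal, 91.8, 81.3, 118 and 92.5 in immobilized and 76, 85.1, 78.6 and 76 in denervated WT muscle. Its denervated and immobilized values did not pass the test of the difference (log2 fold change -0.27, adjusted p = 0.0976, limma). Scaling to an equal sum gave 79 genes higher against basal muscle and 74 against immobilized muscle, with the median of all genes at 0.35 and 0.26. The share of all calls that were higher was then 77.1% and 82.3%, against 50.1% and 52.7% in the deposited values. Of all 13629 genes, 6353 and 5499 were called higher under that scaling, against 3792 and 2789 in the deposited values.

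Rpl3 and its paralogue Rpl3l moved in opposite directions in every comparison with basal muscle. Rpl3 (ENSMUSG00000060036) lies on chromosome 15 and Rpl3l (ENSMUSG00000002500) on chromosome 17, at chr15:80077791-80091868 and chr17:24727820-24736143 of GRCm38. Both encode ribosomal protein L3, which lies near the peptidyl transferase center of the large subunit. Rpl3 had 31.1, 37.1, 42.2 and 28 normalized counts in basal WT muscle of set 2, 80.7, 72, 137 and 119 after immobilization and 358, 385, 308 and 273 after denervation. The 3 groups did not overlap. Rpl3l had 511, 515, 515 and 487 in the basal libraries, 295, 285, 231 and 278 after immobilization and 93.9, 89.5, 117 and 127 after denervation. Again no 2 groups overlapped, with the order turned around.

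In set 1, Rpl3 had 44.3, 38.5, 47.9 and 61.7 normalized counts in basal and 93.9, 213 and 278 in immobilized WT muscle. It had 24.5, 50.8, 51.5 and 33.4 and then 145, 242 and 294 in Sesn1SkM-Tg muscle. In Sesn2SkM-Tg muscle it had 52.3, 68.2, 33.7 and 43.6 and then 163, 317, 217 and 191. Basal and immobilized values did not overlap in any of the 3 genotypes, although the lowest immobilized WT library was far below the other 2. Rpl3l had 348, 364, 395 and 627 normalized counts in basal and 170.1, 166 and 139 in immobilized WT muscle of set 1. It had 395, 394, 412 and 465 and then 238, 160.2 and 118 in Sesn1SkM-Tg muscle, and 538, 791, 495 and 527 and then 267, 199, 291 and 218 in Sesn2SkM-Tg muscle. One basal library of WT and one of Sesn2SkM-Tg muscle stood above the others of their group, and both were the libraries of highest summed value. In Sesn1KO muscle, Rpl3 had 34, 38, 35.7 and 34.8 normalized counts in basal and 181, 177, 143 and 112 in immobilized libraries, and Rpl3l had 593, 553, 512 and 513 and then 247, 226, 271 and 234.

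With immobilization, the log2 fold change of Rpl3 was 1.88 ± 0.33 (SE, adjusted p = 0.000423, limma) in WT, 2.47 ± 0.33 in Sesn1SkM-Tg and 2.15 ± 0.31 in Sesn2SkM-Tg muscle of set 1. In set 2 it was 1.5 ± 0.18 in WT and 2.05 ± 0.18 in Sesn1KO muscle (adjusted p = 2.37e-06 and 2.84e-08, limma). Rpl3l changed by -1.41, -1.33, -1.26, -0.9 and -1.15 in the same order, with adjusted p-values from 3.58e-08 to 0.000189 (limma). After denervation Rpl3 rose by 3.23 ± 0.18 (SE, 9.36-fold, adjusted p = 7.94e-12, limma), and Rpl3l changed by -2.25 ± 0.1 (SE, 4.76-fold lower, adjusted p = 5.36e-13, limma). Against immobilized muscle of the same set, denervated muscle was 1.72 higher for Rpl3 and differed by -1.35 for Rpl3l (adjusted p = 2.15e-07 and 2.59e-09, limma). Both genes were called in the same direction under every alternative scaling and with any single library left out.

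The balance between the 2 forms was read per kb of exon as the share of Rpl3 in the sum of Rpl3 and Rpl3l. It was 3.05, 3.59, 4.07 and 2.89% in basal WT muscle of set 2, 12.4, 11.6, 23.5 and 18.1% after immobilization and 66.4, 69, 57.8 and 52.6% after denervation. Rpl3 was thus above Rpl3l per kb in 4 of 4 denervated libraries and in 0 of the 20 basal libraries of both sets. In immobilized muscle of set 1 the share was 22.2, 39.9 and 50.8% in WT, 23.9, 43.8 and 56.3% in Sesn1SkM-Tg and 24.1, 45.2, 27.8 and 31.2% in Sesn2SkM-Tg libraries. It was above 50% in 1 WT and 1 Sesn1SkM-Tg library, and in none of the 4 immobilized Sesn1KO libraries, which had 27.4, 28.8, 21.5 and 19.8%. These shares depend on the exon lengths used, 3.175 kb for Rpl3 and 1.643 kb for Rpl3l, with all annotated exons merged. In counts not divided by length, Rpl3 was also above Rpl3l in immobilized replicate 2 of WT, Sesn1SkM-Tg and Sesn2SkM-Tg muscle of set 1. The ratio of Rpl3l to Rpl3 was 0.78, 0.66 and 0.63 there. The log2 ratio of Rpl3l to Rpl3 fell by 3.32, 3.84 and 3.43 with immobilization in WT, Sesn1SkM-Tg and Sesn2SkM-Tg muscle of set 1. In set 2 it fell by 2.43 in WT and 3.23 in Sesn1KO muscle, and by 5.53 with denervation, which is a 46.1-fold lower ratio. Groups did not overlap in any of the 6 comparisons, and each had p = 0.0286 by the exact two-sided permutation test, which is the smallest p these group sizes allow (0.0286 after adjustment over the 6).

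**Figure D3:**
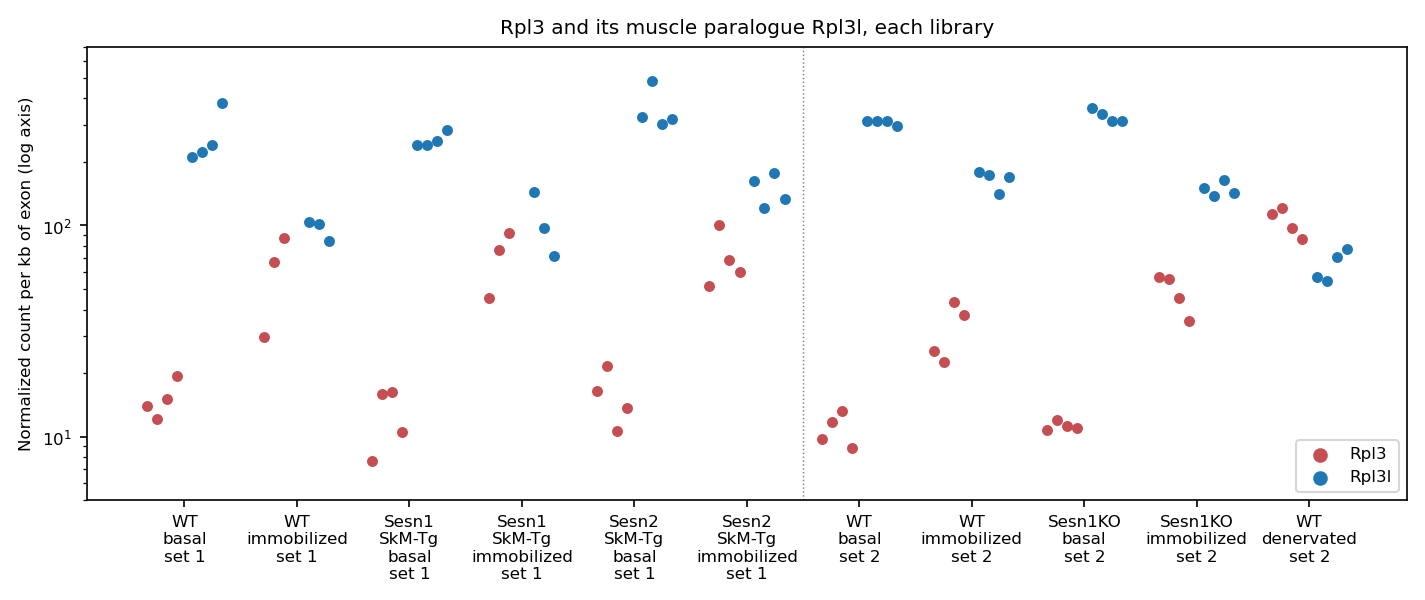
Normalized counts per kb of exon of Rpl3 (red) and Rpl3l (blue) in each library (y axis, log scale), by group (x axis). Rpl3l lies far above Rpl3 in the 20 basal libraries, from 212 to 481 against 7.7 to 21.5 per kb, and below it in the 4 denervated libraries, from 54.4 to 77.5 against 85.9 to 121.

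The other paralogues were called in fewer comparisons than the partners analysed here. Rpl22l1, the paralogue of the RNA-binding large subunit protein Rpl22, had 27.2, 31.9, 30.4 and 28.4 normalized counts in basal WT muscle of set 2, 25.3, 22.5, 20.1 and 21.7 after immobilization and 46.7, 51.8, 36.4 and 40.1 after denervation. All immobilized libraries were below and all denervated libraries above the basal ones. It was called lower with immobilization (log2 fold change -0.38, adjusted p = 0.0191, limma) and higher with denervation (0.54, adjusted p = 0.000697). The first call was lost without basal replicate 2 or immobilized replicate 3, and when libraries were scaled to an equal sum (log2 fold change -0.26). In Sesn1KO muscle it changed by -0.07 with immobilization, and in the 3 genotypes of set 1 by 0.06 to 0.22, none of which was called. Rpl22 itself rose in all 5 immobilization comparisons, by 0.3 to 0.41, and with denervation by 0.55. The call in Sesn1SkM-Tg muscle (adjusted p = 0.0493, limma) was lost without any one of 6 of the 7 libraries, that in Sesn1KO muscle without basal replicate 3 or 4 and that in WT muscle of set 1 without immobilized replicate 3. All 3 were also lost when the fit held only the groups compared.

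Rps27l, whose partner Rps27 was not analysed here, had 52.8, 55.1, 48 and 62.3 normalized counts in basal, 57, 60.1, 61.2 and 51 in immobilized and 81.7, 82.6, 79 and 97.3 in denervated WT muscle. It rose with denervation (0.63, adjusted p = 4.46e-05, limma) and with immobilization in Sesn1KO muscle (0.31, a call lost without any one of 5 of the 8 libraries), but was not called in WT muscle of either set (0.29 and 0.07). Rpl7l1, a nucleolar relative of Rpl7, had 33, 33, 34.5 and 39.3 in basal and 47.1, 46, 47.5 and 49.3 in denervated libraries and rose by 0.44. With immobilization it was called in Sesn1KO muscle alone (0.26, adjusted p = 0.0392, limma), a call that was lost without any one of 6 of the 8 libraries. Rpl7 rose in all 6 comparisons with basal muscle, by 0.34 to 0.67. Rps4l, the paralogue of the X-linked small subunit gene Rps4x, had low values, with 1.67, 1.92, 0.974 and 1.16 normalized counts in basal and 3.52, 4.27, 3.39 and 2.97 in immobilized Sesn2SkM-Tg muscle. It was called there (0.91, adjusted p = 0.0138, limma) and in no other comparison, while Rps4x rose in all 6, by 0.28 to 0.7. The calls of Rps4x with immobilization in set 2 were each lost without any one of 4 of the 8 libraries, in WT and in Sesn1KO muscle.

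Rpl10, which completes the large subunit late in its maturation, had the largest or second largest rise in each comparison with basal muscle. It had 35.8, 31.2, 23.7 and 36 normalized counts in basal, 135, 96, 110.0 and 47.6 in immobilized and 82.7, 138, 84.4 and 119 in denervated WT muscle of set 2, and both treated groups lay above the basal one. Its log2 fold change was 1.47, 1.34, 1.51, 1.51 and 1.12 in the 5 immobilization comparisons and 1.7 with denervation. A row named as its copy, Rpl10-ps3, held more counts than Rpl10 itself: 177, 178, 188 and 167 in basal WT muscle of set 2. The sum of both rows was 213, 209, 212 and 203 in basal, 359.7, 377, 408 and 298 in immobilized and 455, 488, 419.6 and 443 in denervated muscle. With the copy added, an alternative chosen after seeing the data, the log2 fold change was 0.77 with immobilization and 1.1 with denervation, still called but smaller than for the Rpl10 row alone. Both rows rose in these comparisons, and the size for Rpl10 alone is uncertain.

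Rps12, a small subunit protein, varied between libraries against its copy row. In immobilized WT muscle of set 2 it had 120.2, 56.2, 50.9 and 49.8 normalized counts, 1 library far above the other 3, and its copy row Rps12-ps3 had 52, 92.9, 122 and 108 in the same libraries, the lowest value in the library where Rps12 was highest. The sum of the 2 rows was 172, 149, 173 and 157, against 112, 127, 139 and 127 in basal and 237, 252, 208 and 216 in denervated muscle. Every immobilized sum was thus above every basal sum, whereas the Rps12 values themselves overlapped, at 39.6, 65.2, 100.3 and 51.7 in basal muscle. Rps12 alone was called with immobilization in the 3 genotypes of set 1 (1.03, 1.02 and 0.57) and not in set 2 (0.09 in WT and 0.5 in Sesn1KO muscle). The difference between the 2 WT effects, a comparison added after seeing the data, was -0.94 and did not pass the test (adjusted p = 0.112, limma over all 42 libraries).

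**Figure D4:**
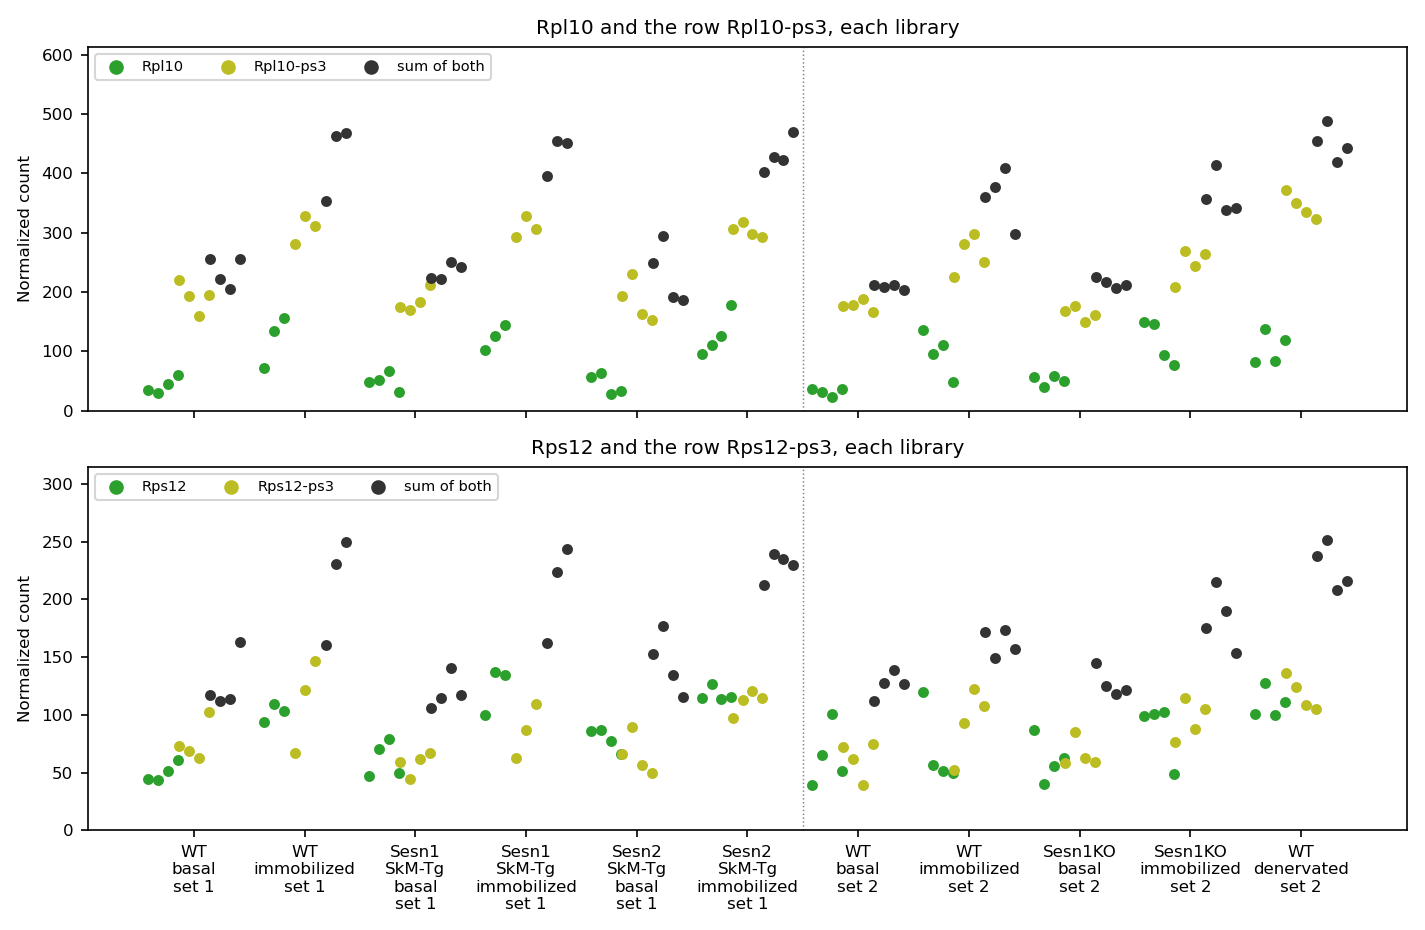
Normalized counts (y axis, linear, from 0) of Rpl10 and its copy row Rpl10-ps3 (upper panel) and of Rps12 and its copy row Rps12-ps3 (lower panel), with the sum of both rows, for each library by group (x axis). In WT muscle of set 2 the Rpl10 sums lie at 203 to 213 in basal and 419.6 to 488 in denervated libraries, and the Rps12 sums at 112 to 139 and 208 to 252.

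Rpl12, which was among the 3 largest rises in 3 comparisons, had low values throughout, with 1.55, 5.21, 4.35 and 2.67 normalized counts in basal, 4.89, 9.42, 6.23 and 8.22 in immobilized and 10.5, 9.41, 8.62 and 10.2 in denervated WT muscle of set 2. It rose by 0.93 and 1.34 on the log2 scale. Rps20, a small subunit protein, had 118, 149, 135 and 141 in basal, 231, 257, 260.1 and 188 in immobilized and 250.2, 285, 252 and 275 in denervated WT muscle, with both treated groups above all basal libraries, and rose by 0.78 and 0.97. Rpl27 of the large subunit had 11, 13.4, 13.4 and 11.1 in immobilized and 25.5, 25.9, 23.3 and 19.7 in denervated WT muscle. The difference of 0.9 on the log2 scale (adjusted p = 0.00334, limma) fell to 0.38 when its copy row was added.

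Few of the 81 genes were called between genotypes, and the largest median difference was in Sesn2SkM-Tg muscle. The 2 transgenic lines were compared with the same WT libraries. In basal muscle of set 1, Sesn1SkM-Tg mice differed from WT mice in 0 of the 81 genes (limma, 0.0292% of all genes; 2 of the 81 had an unadjusted p under 0.05), with a median log2 fold change of 0.03, or 0.2 without WT replicate 4. In immobilized muscle the count was 0 again (0.0073% of all genes; 0 with an unadjusted p under 0.05), with a median of 0.06. Sesn1KO mice differed from WT mice in 0 genes in basal muscle (0.147% of all genes; 4 with an unadjusted p under 0.05) and in 0 in immobilized muscle (0.947%; 9 with an unadjusted p under 0.05), with medians of 0.08 and 0.11. Sesn2SkM-Tg mice had a median of 0.31 against 0.02 over all genes in basal muscle, with 80 of the 81 values above 0. Of these, 2 were called (Rpl13 and Rps12, where 2.5% of all genes were called) and 32 had an unadjusted p under 0.05. In immobilized muscle the median was 0.24 against 0.01, and 1 gene, Rps20, was called (2.94% of all genes). Over all 13705 genes of set 1, 497 and 417 had an unadjusted p under 0.05 (limma) in basal and immobilized Sesn1SkM-Tg muscle. In basal Sesn2SkM-Tg muscle 2136 did. Over all 13629 genes of set 2, 632 and 1917 did in basal and immobilized Sesn1KO muscle.

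Rpl13, a large subunit protein, had 96, 104, 130.5 and 181 normalized counts in basal WT and 212, 288, 199 and 168 in basal Sesn2SkM-Tg muscle, with 1 WT library above the lowest transgenic one. The log2 fold change was 0.77 ± 0.19 (SE, adjusted p = 0.0261, limma), and the call was lost without any one of 5 of the 8 libraries. Rps12 had 44.4, 43.1, 51.3 and 60.7 in WT and 86.2, 87.2, 77.7 and 66.1 in Sesn2SkM-Tg muscle, with no overlap, and differed by 0.66 (adjusted p = 0.0233), a call lost without any one of 6 of the 8 libraries. With the copy row added, Rps12 differed by 0.19 (adjusted p = 0.639) and was no longer called. Rps20 had 179, 241 and 259.7 in immobilized WT and 319, 364, 385 and 349.9 in immobilized Sesn2SkM-Tg muscle, a difference of 0.66 (adjusted p = 0.0473) that was lost without any one of the 7 libraries. The basal count depended strongly on the libraries of highest summed value: it was 33 without WT replicate 4, 0 without Sesn2SkM-Tg replicate 2 and 11 without both, with medians of 0.46, 0.17 and 0.32. Without each of the other libraries in turn it was 0 for WT replicates 1, 2 and 3 and for Sesn2SkM-Tg replicate 1, 1 without Sesn2SkM-Tg replicate 3 and 5 without replicate 4. Calls over all genes were not counted in these fits.

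For Rpl3 and Rpl3l, no genotype comparison was called. In basal muscle Rpl3 differed from WT by -0.3 in Sesn1SkM-Tg (95% interval -0.94 to 0.34), 0.01 in Sesn2SkM-Tg (-0.63 to 0.66) and 0.06 in Sesn1KO muscle (-0.32 to 0.43). In immobilized Sesn1KO muscle Rpl3 was 0.6 above immobilized WT muscle (0.23 to 0.98, adjusted p = 0.116, limma), and 3 of the 4 Sesn1KO libraries lay above all WT libraries. That gene was called when Sesn1KO replicate 4 or WT replicate 3 was left out (0.74 and 0.76). Rpl3l differed by 0.45 in basal and 0.61 in immobilized Sesn2SkM-Tg muscle, neither of which passed the test (adjusted p = 0.282 and 0.135, limma), and the first was called at 0.65 without basal WT replicate 4.

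Whether the response to immobilization itself differed by genotype was tested as a difference of the 2 effects. The count of the 81 genes was 0 for Sesn1SkM-Tg minus WT (0% of all genes; 1 with an unadjusted p under 0.05), 0 for Sesn2SkM-Tg minus WT (0.0073%; 0 with an unadjusted p under 0.05) and 0 for Sesn1KO minus WT (0.022%; 1 with an unadjusted p under 0.05), all by limma. In the same order, 401 and 1008 of all 13705 genes and 1087 of all 13629 had an unadjusted p under 0.05 (limma). The median differences of the 81 genes were 0.02, -0.05 and 0.03 on the log2 scale. Their signs depended on single libraries: with each library left out in turn they ran from -0.13 to 0.12, from -0.21 to 0.08 and from -0.03 to 0.08, the first 2 being lowest without basal WT replicate 4 and the second highest without basal Sesn2SkM-Tg replicate 2. For Rpl3 the differences were 0.59 (-0.39 to 1.58), 0.27 (-0.68 to 1.21) and 0.54 (0.01 to 1.08), so that intervals this wide leave differences of more than 1 log2 unit undetected in each line. Without immobilized WT replicate 1 of set 1 the first 2 differences in Rpl3 were 0.14 and -0.19. Between the 2 WT groups, the effect in set 2 minus that in set 1 had a median of -0.12 (-0.25 without basal WT replicate 4 of set 1). It called 0 of the 81 (6.2% of all genes). An unadjusted p under 0.05 (limma) was reached by 3 of the 81 and by 3087 of all 13763 genes.

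**Figure D5:**
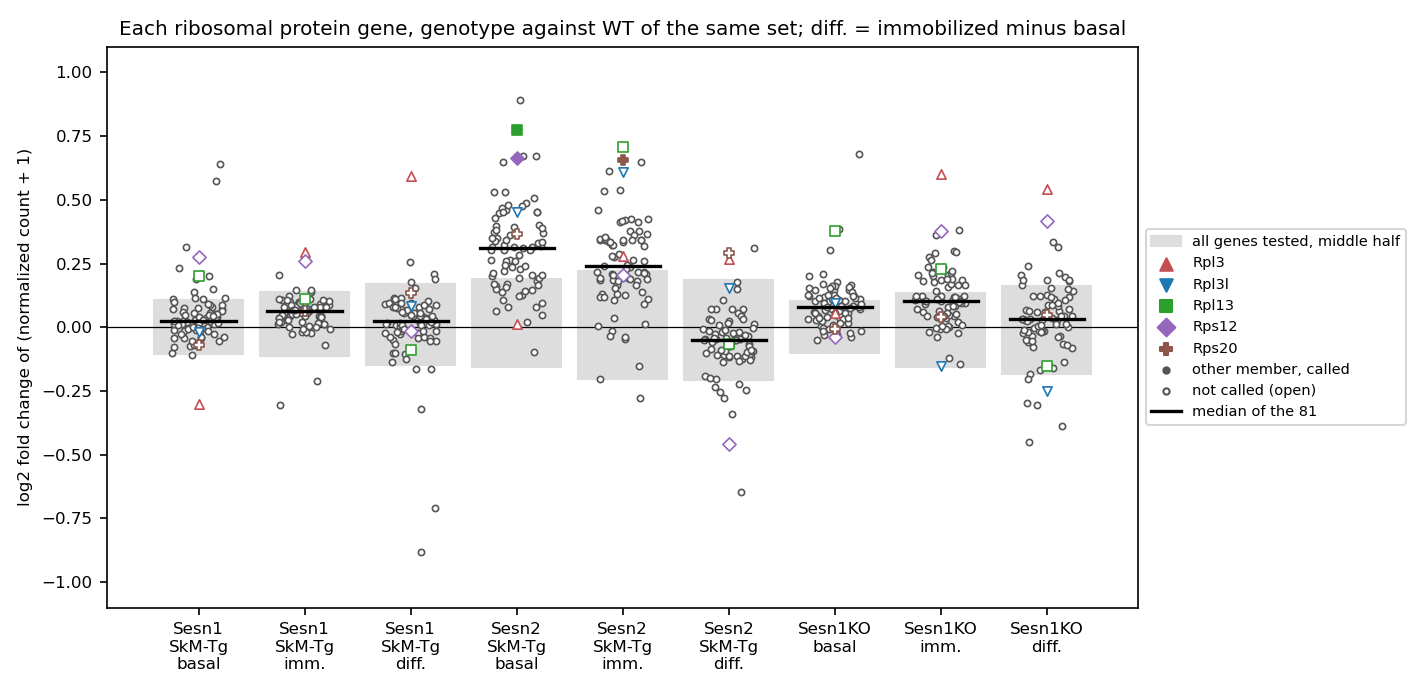
Log2 fold change of log2(normalized count + 1) (y axis) of each of the 81 genes for each genotype against WT of the same set in basal and immobilized muscle, and the difference of the 2 (x axis); filled symbols were called, black lines are the medians of the 81 and grey boxes the interquartile range of all genes tested. The medians of Sesn2SkM-Tg muscle (0.31 and 0.24) lie above the grey box, and 3 symbols are filled.

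Further lists held genes that build ribosomes and their regulators. Of 48 listed ribosome biogenesis genes in the table, 47 rose after denervation and none fell, with a median of 0.93 against -0.03 over all genes, of which 27.8% rose. With immobilization, 28 of the 48 rose in WT and 33 in Sesn1KO muscle of set 2, where 16.2% and 17.2% of all genes rose. In set 1, 12 rose and 1 fell in WT muscle, 5 rose and 4 fell in Sesn1SkM-Tg muscle, and 14 rose and 1 fell in Sesn2SkM-Tg muscle, with medians of 0.19, -0.01 and 0.25. Of all genes, 14.9%, 18.2% and 15% rose and 14.5%, 16.5% and 15.7% fell in these 3 comparisons. Ncl, the nucleolar protein nucleolin, rose by 0.79 with immobilization and 1.37 with denervation in WT muscle of set 2, and Nat10, an acetyltransferase of ribosomal RNA, fell by 0.48 with immobilization in WT muscle of set 1 and rose by 0.76 with denervation. These 2 were picked after their values were seen. Scaled to an equal sum, the list had 27, 12 and 29 genes higher and 0 lower in WT, Sesn1SkM-Tg and Sesn2SkM-Tg muscle of set 1 (medians 0.52, 0.29 and 0.54) and 48 higher after denervation. With that scaling 4087, 4138 and 3924 of all 13705 genes were higher in set 1, with medians of 0.28, 0.25 and 0.26. After denervation 6353 of all 13629 were higher, with a median of 0.35. In Sesn1SkM-Tg muscle the list was thus close to all genes.

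Of 14 genes of RNA polymerase I, which makes the large ribosomal RNA precursor, and its initiation factors, 12 rose after denervation (median 0.73), against 27.8% of all genes. With immobilization 6 rose in WT muscle of set 2, and in Sesn1KO muscle 6 rose and 1 fell. None rose and 1 fell in WT muscle of set 1, none rose and 3 fell in Sesn1SkM-Tg muscle, and 2 rose in Sesn2SkM-Tg muscle. The medians of the polymerase I list in the 5 immobilization comparisons ran from -0.09 to 0.34. The negative one, in Sesn1SkM-Tg muscle, turned to 0.2 when libraries were scaled to an equal sum. The median of all genes was then 0.25 there, so the list did not stand above all genes. Of 8 chaperones and modifiers of ribosomal proteins in the table, 6 rose after denervation and 1 with immobilization in WT muscle of set 1, against 27.8% and 14.9% of all genes. In immobilized Sesn1SkM-Tg muscle 1 rose and 1 fell, and in Sesn2SkM-Tg muscle 2 rose. In set 2, 3 rose and 1 fell in WT and 4 rose and 1 fell in Sesn1KO muscle, where 16.2% and 17.2% of all genes rose. Of 13 listed regulators of TOP transcripts and ribosomal protein genes, 4 rose and 1 fell after denervation, beside 27.8% higher and 27.7% lower of all genes. With immobilization 5 rose in WT muscle of set 2, and in Sesn1KO muscle 6 rose and 1 fell, beside the same 16.2% and 17.2% of all genes higher. In each genotype of set 1, 2 rose, and 1 fell in Sesn1SkM-Tg muscle. Myc, picked after its values were seen, the transcription factor that drives ribosome production, rose by 1.45 and 1.85 with immobilization in the WT groups of sets 1 and 2 and by 2.78 with denervation.

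Markers of other cell types moved with some of these changes. The summed value of 13 macrophage and leukocyte markers was 53.1 to 87 in basal and 272 to 530.2 in immobilized WT libraries of set 1, and all 13 rose there and in Sesn1SkM-Tg muscle, where the sum was 45.5 to 89.3 and 221 to 613. Of the 13, 5 rose in Sesn2SkM-Tg, 3 in WT of set 2 and 1 in Sesn1KO muscle, with sums of 111 to 320.1, 163 to 299 and 81 to 471 after and 66 to 83.1, 50.5 to 209.8 and 73.5 to 109 before immobilization. After denervation, where ribosomal protein genes rose most, 1 of the 13 rose and 1 fell, and the sum was 61.7 to 171 against 50.5 to 209.8 in basal muscle. Fibroblast markers rose in 4 of 8 cases in immobilized WT muscle of set 1, in 8 of 8 in Sesn1SkM-Tg muscle and in 0 of 8 in the other 3 immobilization comparisons and after denervation, where 3 fell. In immobilized Sesn1KO muscle 1 of the 8 fell. Of 6 endothelial markers, 2, 4 and 5 rose in WT, Sesn1SkM-Tg and Sesn2SkM-Tg muscle of set 1, with 1 lower in WT muscle, and 6 and 3 fell in WT and Sesn1KO muscle of set 2. All 6 fell after denervation, with a summed value of 139 to 175 against 273 to 348 in basal muscle. Of 5 Schwann cell markers, 3, 5 and 4 rose in the same 3 groups of set 1. In set 2 none of them rose, 2 fell with immobilization in Sesn1KO muscle and 1 fell after denervation. Of 5 satellite cell and myoblast markers, 1 or 2 rose in each comparison with basal muscle, where 14.9% to 27.8% of all genes rose. With immobilization, 1 of the 5 fell in Sesn1SkM-Tg muscle and 1 in WT muscle of set 2. The list medians ran from -0.24 in WT muscle of set 2 to 0.34 in WT muscle of set 1. After denervation 2 of the 5 rose and 1 fell, and the median log2 fold change of the 5 was 0.03. The sum of the 5 was 166 to 199 there against 79.9 to 84.9 in basal muscle, with no overlap. Of 4 adipocyte markers none rose, and all 4 fell after denervation, with sums of 1.37 to 5.44 against 3.78 to 20.2. With immobilization, 3 of the 4 fell in WT muscle of set 2 and 2 in Sesn1SkM-Tg muscle. Muscle fiber markers fell in 9 of 10 cases after denervation (4 of 10 with quantile normalization) and in 4 of 10 in immobilized WT muscle of set 1. With immobilization, 1 rose and 4 fell in Sesn1SkM-Tg muscle, and 5 fell in Sesn2SkM-Tg muscle. In WT muscle of set 2, 2 rose and 3 fell, and in Sesn1KO muscle 3 fell. The 13 mitochondrially encoded genes all fell after denervation, although with quantile normalization none of the 13 fell and 2 rose. With immobilization, 6 of the 13 fell in Sesn2SkM-Tg muscle, 9 in WT and 9 in Sesn1KO muscle of set 2, and none in the other groups. The part of these cells in the rise of the ribosomal protein genes was not tested.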

How the data were processed

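RNA sequencing of tibialis anterior muscle was analysed in 42 libraries of 11 groups, as grouped by the labels. The deposited table held a signal per gene, the normalized counts the authors made for 13809 genes. Per the labels and the study's methods, they trimmed reads with cutadapt 1.7.1, checked them with FastQC, mapped them to the GRCm38 transcriptome, quantified genes with RSEM 1.2.20 and normalized with limma (the processing notes also name edgeR). Depth is unknown, since the values are no longer counts, and 0 value columns were left unused.

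Values were tested as log2(value + 1) with limma 3.58.1 (R 4.3.3; trended variance, 1 coefficient per group, each set fitted on its own). A gene entered if it reached 1 in at least 1 library of the set. Calls needed a Benjamini-Hochberg adjusted p under 0.05 over all genes tested and a log2 fold change of at least 0.25 in size. The Rpl3l to Rpl3 ratio was tested by exact permutation. The fit was tested on simulated data. Exon lengths came from GENCODE M21, which matched 13715 genes, and were those of all annotated exons of a gene merged. Figures were drawn with matplotlib 3.10.9.

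Named genes were Rpl3 and Rpl3l, paralogues with their partners, up to 3 called genes of largest change in each direction per comparison, genes called alike in all 5 immobilization comparisons, the 3 highest and 3 lowest per kb, and Sesn1 and Sesn2. The members, lists and comparisons were chosen with earlier results of these data known. Alternatives were another pseudocount, filter, scaling or sample set, a replicate block, no fold threshold and each library left out. Adding rows of copies to their gene, the difference between WT sets and leaving out both basal libraries of highest summed value were chosen after seeing the data. Results that need certain withheld items are not reported here.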

Additional observations from a re-analysis of the deposited data

Results flagged for a closer look

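Within groups of 4 libraries, the highest or lowest library was compared with the others for 19 measures of the ribosomal protein genes, by Dixon's gap test. Of 171 such tests 16 passed the 95% critical value, where chance alone passes about 1 in 20. Of these, 7 concerned basal WT replicate 4 of set 1. Its summed value of the 81 genes was 14164 against 9069 to 9561 in the other 3 libraries, and its share of the library total was 1.22% against 0.852 to 0.898%. Its Rpl3l value was 627 against 348 to 395, and Rpl22 stood at 127 against 89.2 to 93.8. Rpl22l1 was 67.7 there against 22.4 to 25.6, Rps28 was 85.1 against 42.7 to 46.5, and Rps20 was 227 against 119.8 to 133.

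Rpl3l was 791 in basal Sesn2SkM-Tg replicate 2 against 495 to 538 in the others, and 487 in basal WT replicate 4 of set 2 against 511 to 515. The ratio of Rpl3l to Rpl3 was 17.4 in basal Sesn1KO replicate 1 against 14.3 to 14.8. Rps12 was 126 in immobilized Sesn2SkM-Tg replicate 2 against 114 to 115, 48.8 in immobilized Sesn1KO replicate 4 against 99.1 to 102, and 120.2 in immobilized WT replicate 1 of set 2 against 49.8 to 56.2. Rps28 was 62.1 in basal Sesn1SkM-Tg replicate 3 against 45.9 to 48.2. Rpl7l1 was 47.5 in immobilized Sesn2SkM-Tg replicate 2 against 39.6 to 40.6, and Rpl27 was 8.09 in basal Sesn1KO replicate 1 against 12.3 to 12.5. Whether RNA quality, dissection or handling of these libraries differed was not tested.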

How the results depend on the processing

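No named gene that was called changed direction under any alternative run. In set 2 the counts of genes called against basal muscle, with immobilization and with denervation, stayed within 1.5 times of the reported ones under all alternatives run. In set 1 they moved more: with immobilization in WT muscle (45 called), quantile normalization gave 70, scaling to an equal sum 80, a fit of the groups compared alone 20, and leaving out both basal libraries of highest summed value 77. Scaling to an equal sum gave 77 in Sesn1SkM-Tg and 77 in Sesn2SkM-Tg muscle, and leaving out both libraries gave 76 in Sesn2SkM-Tg muscle. For denervated against immobilized muscle of set 2 (47 called), scaling to an equal sum gave 75. For Sesn2SkM-Tg against WT in basal muscle (2 called), scaling to an equal sum gave 1, the groups compared alone 0, adding copy rows 1 and leaving out both libraries 11. For the same genotypes in immobilized muscle (1 called), a pseudocount of 0.1, quantile normalization, centring on the median and scaling to an equal sum each gave 0. The cause was not tested.

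Leaving out 1 library at a time gave 15 to 75 calls with immobilization in WT muscle of set 1, 19 to 55 in Sesn1SkM-Tg and 22 to 72 in Sesn2SkM-Tg muscle. It gave 0 to 33 for Sesn2SkM-Tg against WT in basal and 0 to 0 in immobilized muscle. It gave 0 to 1 for Sesn1KO against WT in immobilized muscle, and 0 to 1 for the difference between the WT sets (Rpl22l1 without basal WT replicate 4 of set 1, Rps12 without immobilized WT replicate 1 of set 2). The log2 ratio of Rpl3l to Rpl3 then changed by -3.83 to -2.90 in WT and -4.40 to -3.38 in Sesn1SkM-Tg muscle of set 1, where the exact permutation test on the libraries left cannot pass 0.05. Among single named genes, 48 of these refits and 23 other alternatives lost a call and 3 refits gained one. Calls over all genes were not counted in the refits.

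The labels number replicates in each group, but same-numbered libraries did not deviate together: correlations ran from -0.22 to 0.15, and no comparison had all its pairs above 0.1. With a replicate block, Sesn2SkM-Tg against WT in immobilized muscle had 0 calls, and the other counts stayed within 1.5 times. The ratio of Rpl3l to Rpl3, paired by number, changed by -3.25, -3.72, -3.43, -2.43, -3.23 and -5.53 in the order WT, Sesn1SkM-Tg and Sesn2SkM-Tg of set 1, WT and Sesn1KO of set 2 and denervation, with p = 0.25 for 3 pairs and 0.125 for 4 pairs by the exact sign-flip test, the smallest these allow. Depth limits low genes such as Rpl12, Rpl5 and Rps4l.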
